A study of Mus musculus with 6 samples.

Results

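The clustered histone genes of the mouse were taken as the protein-coding genes of GENCODE release M21 (GRCm38) whose symbols begin with Hist1h, Hist2h, Hist3h or Hist4h. They numbered 67 of the 21853 protein-coding genes with a transcription start site (TSS) on the assembled chromosomes. By symbol, 6 encode the linker histone H1, 18 encode H2A, 18 encode H2B, 12 encode H3 and 13 encode H4. The Hist1 cluster on chromosome 13 holds 54 of them, Hist2 on chromosome 3 holds 10, Hist3 on chromosome 11 holds 2, and Hist4 on chromosome 6 is 1 gene.

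Histone genes of these clusters are switched on when DNA is copied in S phase, so that new histones are made together with new DNA. Most have a single exon, and their mRNAs end in a stem-loop bound by Slbp instead of a poly(A) tail. The genes gather in a nuclear structure, the histone locus body, where the coactivator Npat acts on them. H3K4me3, trimethylation of lysine 4 of histone H3, marks the region around the TSS of active genes, and Tex10 is a nuclear protein known from ribosome biogenesis and from embryonic stem cells.

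Binding was read by chromatin immunoprecipitation and sequencing on day 2 in primordial germ cell-like cells (PGCLCs) of the mouse, which are grown in culture and resemble the precursors of eggs and sperm. The cells were of strain 129Sv/J and untreated, and their Tex10 carried an HA tag at its C-terminus. There were 2 samples with an HA antibody (Abcam ab9110), 2 with an H3K4me3 antibody (Abcam ab8580) and 2 of input DNA with no antibody, and all 6 shared the strain, the cell type and the lack of treatment. The deposited lists hold 1 set of genomic intervals per antibody and no score, so no value below has a replicate error, the depth is unknown and no test compares samples.

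The labels do not say whether the tag was placed at the Tex10 gene itself, how many clones were used, or whether intervals were called in each sample. H3K4me3 lay within 1 kb of a TSS at 8 of 10 germ cell and pluripotency markers, but not at Dppa3 or Nanos3. It was also there at 3 of 3 epiblast markers, 4 of 4 endoderm markers, 3 of 4 mesoderm markers and 0 of 8 genes of differentiated tissues. Other cell types in the culture could therefore not be told apart from PGCLCs by this mark.

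Of the 67 clustered histone genes, 39 had an HA-Tex10 interval no further than 1 kb from a TSS (58.2%, Wilson 95% interval 46.3 to 69.3%), against 8.66% of all protein-coding genes. H3K4me3 intervals lay there at 64 of the 67 (95.5%, 87.6 to 98.5%), against 60.9% of all protein-coding genes. Among genes with H3K4me3, 39 of 64 histone genes had HA-Tex10 (60.9%, 48.7 to 71.9%), against 13.9% of all such genes. HA-Tex10 without H3K4me3 was found at 0 of the 39 histone genes and at 37 of the 1893 protein-coding genes with HA-Tex10, so it was rare among all genes too. The Wilson intervals cover the counting of genes only. They treat neighbours as independent, which they are not, since the 39 genes shared 31 distinct HA-Tex10 intervals.

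HA-Tex10 was found at 10 of 13 H4 genes (76.9%, 49.7 to 91.8%), 12 of 18 H2A genes (66.7%, 43.7 to 83.7%), 10 of 18 H2B genes (55.6%, 33.7 to 75.4%), 6 of 12 H3 genes (50%, 25.4 to 74.6%) and 1 of 6 H1 genes (16.7%, 3.01 to 56.4%). All of these Wilson intervals overlapped one another. Genes of different classes also shared HA-Tex10 intervals, so no order of the classes is drawn from these shares. H3K4me3 was at 13 of 13 H4, 12 of 12 H3, 17 of 18 H2A, 17 of 18 H2B and 5 of 6 H1 genes. By cluster, HA-Tex10 was at 35 of 54 Hist1 genes (64.8%), at 2 of 10 Hist2 genes (20%) through 1 shared interval, at 1 of 2 Hist3 genes and at the Hist4 gene.

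**Figure D1:**
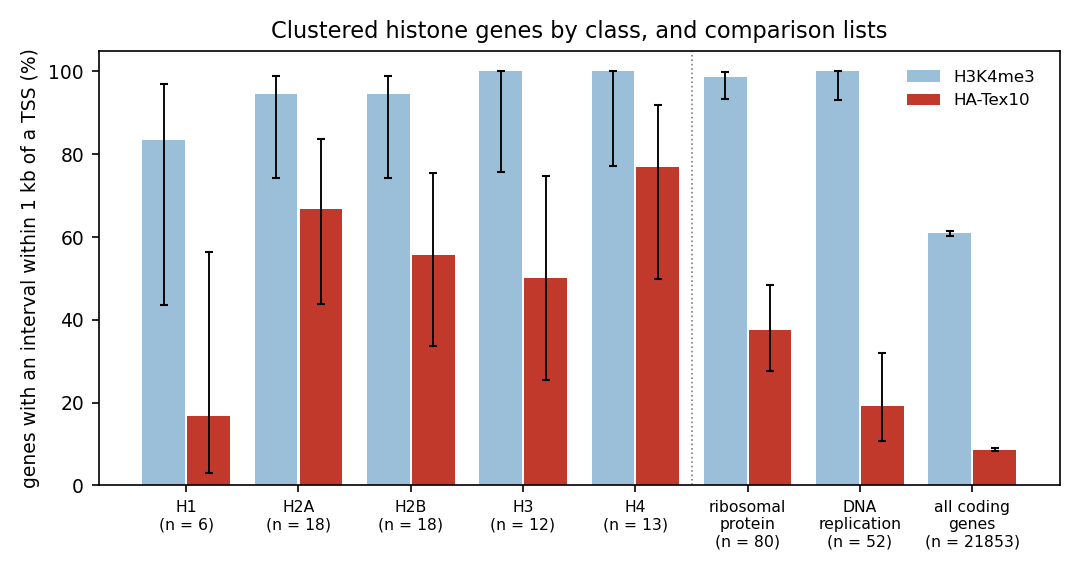
Share of genes (%) with an H3K4me3 interval (blue) or an HA-Tex10 interval (red) within 1 kb of a TSS, by histone class and for comparison lists. Error bars are Wilson 95% intervals over genes. The H4 bar for HA-Tex10 stands at 76.9% and the H1 bar at 16.7%, and the bar of all coding genes stands at 8.66%.

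Comparison lists were read with the same 1 kb window. Cytosolic ribosomal protein genes, which are also highly transcribed, had an interval at 30 of 80 (37.5%, 27.7 to 48.5%). Genes of DNA replication, which are active in the same phase of the cell cycle, had one at 10 of 52 (19.2%, 10.8 to 31.9%). Other protein-coding genes with a single exon and 1 TSS, which share the compact structure of histone genes, had one at 46 of 1259 (3.65%), and at 44 of the 371 with H3K4me3 (11.9%, 8.95 to 15.5%). The other genes of the chromosomes that carry the large clusters had HA-Tex10 at 52 of 777 on chromosome 13 (6.69%) and at 65 of 989 on chromosome 3 (6.57%). The order of histone and ribosomal protein genes depended on the rule, as read under alternatives added after seeing the data. Where the interval had to overlap the TSS, 12 of 67 histone genes (17.9%, 10.6 to 28.7%) and 17 of 80 ribosomal protein genes (21.2%, 13.7 to 31.4%) had HA-Tex10. Without the intervals of mostly repeated sequence described next, the histone share was 20.9% (12.9 to 32.1%), below the 36.2% of ribosomal protein genes (26.6 to 47.2%) and close to the 19.2% of DNA replication genes (10.8 to 31.9%).

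Repeated sequence moves with this result. A 32-base word was called repeated where the assembled chromosomes hold it at more than 1 place, counting either strand, and an interval was called mostly repeated where over 50% of its words were. This held for 18 of the 31 HA-Tex10 intervals at histone genes (58.1%, 40.8 to 73.6%), against 113 of 1742 at other coding TSS (6.49%). With 50-base words it held for 14 of 31 (45.2%). Reads from such copies cannot be placed with certainty, and how the authors treated them is not given in the sources used here.

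Without mostly repeated intervals, 14 histone genes had HA-Tex10 (20.9%), against 8.19% of all protein-coding genes. They were 7 of 13 H4 genes (53.8%), 2 of 18 H2A and 2 of 18 H2B genes (11.1% each), 2 of 12 H3 genes and 1 of 6 H1 genes (16.7% each). The H4 genes were Hist4h4, Hist1h4a, Hist1h4b, Hist1h4c, Hist1h4d, Hist1h4h and Hist1h4i. The others were Hist3h2a, Hist1h2ai, Hist1h2bl, Hist1h2bb, Hist1h3a, Hist1h3c and Hist1h1c.

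The repeats lie mostly in the coding sequence. More than 50% of its words were repeated in 53 of the 67 genes, with a median of 84.1% of words over all 67. The median was 90.8% in H3, 88.2% in H2A, 85.4% in H2B and 77.7% in H4, but 16.2% in H1. Between members with coding sequences of the most common length of their class, the median identity was 97.5% in H3 (11 genes), 96.7% in H2A (15 genes), 94.7% in H2B (14 genes) and 93.9% in H4 (13 genes). H1 was not compared, since its 6 coding sequences all differ in length. In the 300 bp upstream of the TSS the median was 0, and 10 genes were mostly repeated there. A mostly repeated coding sequence was found in 36 of 39 genes with HA-Tex10 and in 17 of 28 without, and a mostly repeated upstream region in 8 of 39 and in 2 of 28. The part of these repeats in the HA-Tex10 share was not tested beyond the count without mostly repeated intervals.

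**Figure D2:**
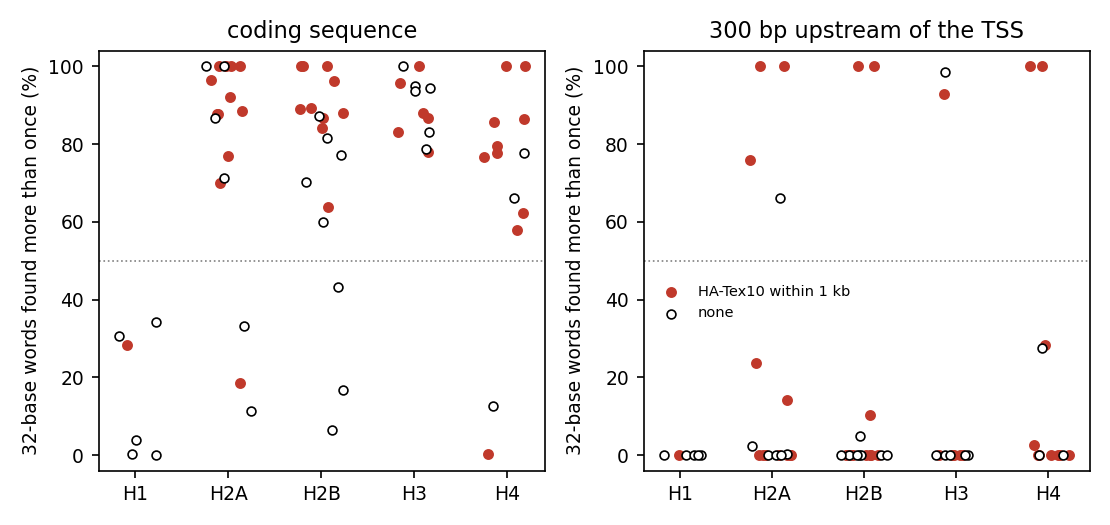
Percent of 32-base words that occur more than once in the genome, in the coding sequence (left) and in the 300 bp upstream of the TSS (right), for each of the 67 histone genes by class. Filled red points have HA-Tex10 within 1 kb, open points do not, the dotted line is at 50%, and horizontal scatter within a class has no meaning. Most H2A, H2B, H3 and H4 coding sequences lie above the line and all 6 H1 coding sequences below it, while most upstream regions lie at 0.

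H4 forms the centre of the nucleosome with H3. The widest HA-Tex10 interval at an H4 gene covered 774 bp at Hist4h4, the lone Hist4 gene (chr6:136803878-136804651, GRCm38). It reached from -236 to 537 bp, counted from the TSS with upstream positions negative, lay wholly in H3K4me3, and had 0.135% of its words repeated, so its place in the genome is well defined. The bases before the RefSeq TSS of this gene are shown as those at the widest HA-Tex10 interval of the class. They come from the RefSeq promoter table (GRCm38.p6, chr6:136804432-136804681, minus strand, read 5′ to 3′ in the direction of transcription). Capitals mark the SP GC box GGGCGG, here as its complement CCGCCC, and the core of H4 site II, GGTCCG. The core starts 32 bases before the RefSeq TSS. Interval positions are counted from the GENCODE TSS and motif positions from the RefSeq TSS. At Hist4h4 these lie 36 bp and 52 bp before the start codon, and at some genes they differ more.
Hist4h4: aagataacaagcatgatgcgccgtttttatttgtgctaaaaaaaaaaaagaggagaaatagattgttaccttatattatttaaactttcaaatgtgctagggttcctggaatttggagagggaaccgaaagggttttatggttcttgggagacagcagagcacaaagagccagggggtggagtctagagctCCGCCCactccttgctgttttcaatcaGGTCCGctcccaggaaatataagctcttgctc

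The other H4 genes with HA-Tex10 lay in the Hist1 cluster. At Hist1h4b a 296 bp interval crossed the TSS, with 51.4% of its bases in coding sequence. At Hist1h4d the interval ran from -96 to 315 bp, and at Hist1h4k from -118 to 193 bp. At Hist1h4n it ran from -329 to 216 bp, with 95.5% of its words repeated. With Hist1h4c and Hist4h4, these were the 6 H4 genes whose TSS base lay inside an interval, 46.2% of the class.

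At Hist1h4h a 716 bp interval began 144 bp downstream of the TSS, and at Hist1h4i a 134 bp interval began 402 bp downstream. Hist1h4m had 2 intervals, of 229 bp and 271 bp, with 100% and 91.2% of words repeated. Hist1h4a had 3 within 1 kb, of 242, 219 and 263 bp. The H4 genes without HA-Tex10 were Hist2h4, Hist1h4f and Hist1h4j.

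Hist1h4c also had 2 intervals, of 237 bp and 272 bp. The first, chr13:23698399-23698635 on GRCm38, held the TSS, had 0 repeated words and met no H3K4me3 interval. It is shown whole, with an interval of the same kind from an H2A-H2B pair below, as a place where HA-Tex10 stands at a histone TSS in single-copy sequence and outside H3K4me3. Both were chosen after their values were seen. The sequence is that of the minus strand, on which Hist1h4c is transcribed. Capitals mark the CCAAT box and GGTCCG.
Hist1h4c: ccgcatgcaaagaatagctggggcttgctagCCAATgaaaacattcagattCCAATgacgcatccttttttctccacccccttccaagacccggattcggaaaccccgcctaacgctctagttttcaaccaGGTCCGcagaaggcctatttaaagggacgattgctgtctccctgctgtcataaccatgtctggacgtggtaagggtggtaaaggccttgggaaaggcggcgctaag

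H3 carries the lysine 4 that is read as H3K4me3. HA-Tex10 was at Hist1h3a, Hist1h3b, Hist1h3c, Hist1h3d, Hist1h3f and Hist2h3c2, and in 0 of these did an interval hold the TSS base. The intervals at Hist1h3f (106 bp, from 455 bp downstream of the TSS) and Hist1h3c (405 bp, from 253 bp downstream) lay in the gene. Those at Hist1h3b and Hist1h3d lay 698 bp and 619 bp from the TSS, in the neighbouring Hist1h2ab and in the Hist1h2bf and Hist1h2ad pair. Hist1h3a, head to tail with Hist1h4a, had an interval of 263 bp from 321 bp downstream of its TSS and a share in a 219 bp interval with 0 repeated words.

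The widest at an H3 gene covered 760 bp between Hist2h3c2 and Hist2h2aa2 (chr3:96239132-96239891, GRCm38), and it was the only HA-Tex10 interval of the Hist2 cluster. Its words were 93.1% repeated. Hist2h3c1 and Hist2h2aa1, which lie on the facing copy of this segment, had no HA-Tex10 interval within 1 kb. The coding sequences of all 4 of these genes had 100% of their words repeated, so which copy the reads came from cannot be told apart from these lists. The bases before Hist2h3c2 (chr3:96239128-96239377, minus strand, RefSeq, GRCm38.p6) lie almost wholly inside the interval and are shown as those at the widest interval of the class. They hold 6 GC boxes, capitalised on either strand, and no CCAAT box, which in this gene lies in the 50 bases after the TSS.
Hist2h3c2: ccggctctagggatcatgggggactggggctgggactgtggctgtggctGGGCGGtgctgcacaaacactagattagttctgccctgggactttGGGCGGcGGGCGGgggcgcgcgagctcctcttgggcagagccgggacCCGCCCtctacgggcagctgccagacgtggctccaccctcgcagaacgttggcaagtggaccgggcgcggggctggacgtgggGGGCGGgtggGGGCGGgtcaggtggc

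H2A and H2B form the dimers of the nucleosome, and their genes often stand back to back, so that 1 stretch of DNA serves as the promoter of both. There were 13 divergent pairs among the 67 genes, with TSS 176 to 660 bp apart (median 268 bp), and 12 of them joined an H2A with an H2B gene. HA-Tex10 was at both genes of 9 such pairs, at neither of 3 and at 1 gene alone in 0. In each of the 9 pairs the genes shared an interval, so a pair is 1 observation and not 2. The TSS of a pair lie closer together than the 1 kb window reaches, so agreement within a pair follows largely from the rule. The 3 pairs without were Hist2h2ac with Hist2h2be, Hist1h2ag with Hist1h2bj and Hist1h2ba with Hist1h2aa. Of the 41 genes in no pair, 20 had HA-Tex10.

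The 9 pairs were Hist1h2ai with Hist1h2bl, Hist1h2ak with Hist1h2bn, Hist1h2an with Hist1h2bp, Hist1h2ao with Hist1h2bq, Hist1h2ap with Hist1h2br, Hist1h2ah with Hist1h2bk, Hist1h2ae with Hist1h2bg, Hist1h2ad with Hist1h2bf and Hist1h2ac with Hist1h2bc. Outside these pairs, HA-Tex10 was at the H2A genes Hist1h2ab, Hist2h2aa2 and Hist3h2a and at the H2B gene Hist1h2bb. The intervals of the pairs were 14 to 1058 bp wide. Between them stood Hist1h2ad with Hist1h2bf at 675 bp, Hist1h2ap with Hist1h2br at 583 bp, Hist1h2an with Hist1h2bp at 521 bp, Hist1h2ac with Hist1h2bc at 388 bp and Hist1h2ak with Hist1h2bn at 258 bp. Hist1h2ae and Hist1h2bg shared intervals of 467 bp and 163 bp. The narrowest, at Hist1h2ah and Hist1h2bk, had 100% of its words repeated, and so had the widest, at Hist1h2ao and Hist1h2bq (chr13:21809539-21810596, GRCm38). At Hist3h2a, by contrast, a 196 bp interval lay wholly in coding sequence with 0 repeated words, from 71 to 266 bp downstream of the TSS.

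The bases before Hist1h2ao (chr13:21810117-21810366, plus strand) lie inside the widest interval and reach past the TSS of Hist1h2bq. They show part of the shared promoter of this pair, since they end at the RefSeq TSS, 100 bp before the start codon of Hist1h2ao. Its GENCODE TSS lies 2 bp before that codon. The bases are set beside those of Hist1h2ag (chr13:22042950-22043199, minus strand), the nearest H2A gene without HA-Tex10. Both come from RefSeq, GRCm38.p6. Capitals mark CCAAT and its complement ATTGG, the GC box, and the core of the cyclic AMP element, TGACGT or its complement. Both windows hold CCAAT in both orientations and TGACGT, with 2 CCAAT boxes before Hist1h2ao and 5 before Hist1h2ag. A further CCAAT box, 172 bases before the RefSeq TSS of Hist1h2bq, lies just past the end of the Hist1h2ao window. The counts therefore depend on which TSS is used.
Hist1h2ao: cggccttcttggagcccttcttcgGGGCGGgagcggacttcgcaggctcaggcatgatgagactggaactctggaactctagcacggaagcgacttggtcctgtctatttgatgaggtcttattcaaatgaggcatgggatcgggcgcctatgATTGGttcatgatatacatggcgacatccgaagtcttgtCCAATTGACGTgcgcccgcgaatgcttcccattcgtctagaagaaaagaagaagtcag
Hist1h2ag: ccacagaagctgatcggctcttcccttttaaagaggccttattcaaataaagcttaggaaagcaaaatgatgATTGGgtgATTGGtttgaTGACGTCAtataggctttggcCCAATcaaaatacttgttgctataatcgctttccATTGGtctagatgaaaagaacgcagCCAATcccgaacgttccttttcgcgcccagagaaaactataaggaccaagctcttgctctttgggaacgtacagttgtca

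The interval between Hist1h2bl and Hist1h2ai covered 170 bp with 0 repeated words and met no H3K4me3 interval (chr13:21716275-21716444, GRCm38, plus strand, the strand of Hist1h2ai). It lay from -147 to 22 bp of the Hist1h2ai TSS, and it is shown whole with CCAAT and ATTGG in capitals. It holds 3 such boxes and ends just inside the coding sequence.
Hist1h2ai: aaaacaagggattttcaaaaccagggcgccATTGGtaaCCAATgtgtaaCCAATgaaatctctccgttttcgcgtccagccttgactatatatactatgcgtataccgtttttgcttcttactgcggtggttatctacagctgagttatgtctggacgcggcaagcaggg

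H1 binds the DNA that enters and leaves the nucleosome. Hist1h1c was the single H1 gene with HA-Tex10 within 1 kb, in an interval of 613 bp from 84 to 696 bp downstream of the TSS, 96.7% of it in coding sequence and 29.6% of its words repeated. Hist1h1a, Hist1h1b and Hist1h1e had H3K4me3 and no HA-Tex10 in this window. The share of H1 genes with HA-Tex10 was 66.7% with a window of 2.5 kb, against 9.51% of all genes. That window also counts intervals of neighbouring genes. From Hist1h1t it reached the 272 bp interval of Hist1h4c, and from Hist1h1a the 263 bp interval at Hist1h3a. Where the interval had to overlap the TSS the share of H1 genes was 0%, against 3.85% of all genes. The bases before Hist1h1c (chr13:23738557-23738806, plus strand, RefSeq, GRCm38.p6) are shown as those at the one H1 interval. They hold the H1 box AAACACA, 112 bases before the TSS, and a CCAAT box, both in capitals.
Hist1h1c: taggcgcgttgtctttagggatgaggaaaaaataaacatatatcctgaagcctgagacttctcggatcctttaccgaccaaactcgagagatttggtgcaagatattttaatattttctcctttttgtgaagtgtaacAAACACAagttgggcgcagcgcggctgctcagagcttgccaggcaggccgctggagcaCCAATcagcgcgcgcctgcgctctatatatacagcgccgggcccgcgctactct

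The genes without H3K4me3 within 1 kb were Hist1h2aa, Hist1h2ba and Hist1h1d. Hist1h2aa and Hist1h2ba form a divergent pair known for expression in the testis, and neither had any interval of either kind drawn within 1500 bp of its TSS. Hist1h1t, the H1 gene known from the testis, had 1 H3K4me3 interval of 33 bp, 385 bp downstream of its TSS, the narrowest at any of the 67 genes, and no HA-Tex10. Hist1h1d differs in that its annotated TSS lies 1828 bp before its start codon. Counted from the start codon, a measure added after the values were seen, Hist1h1d had both marks. Hist1h2be, whose annotated TSS lies 35168 bp from its start codon, then also had HA-Tex10, and the total became 41 of 67 genes (61.2%).

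**Figure D3:**
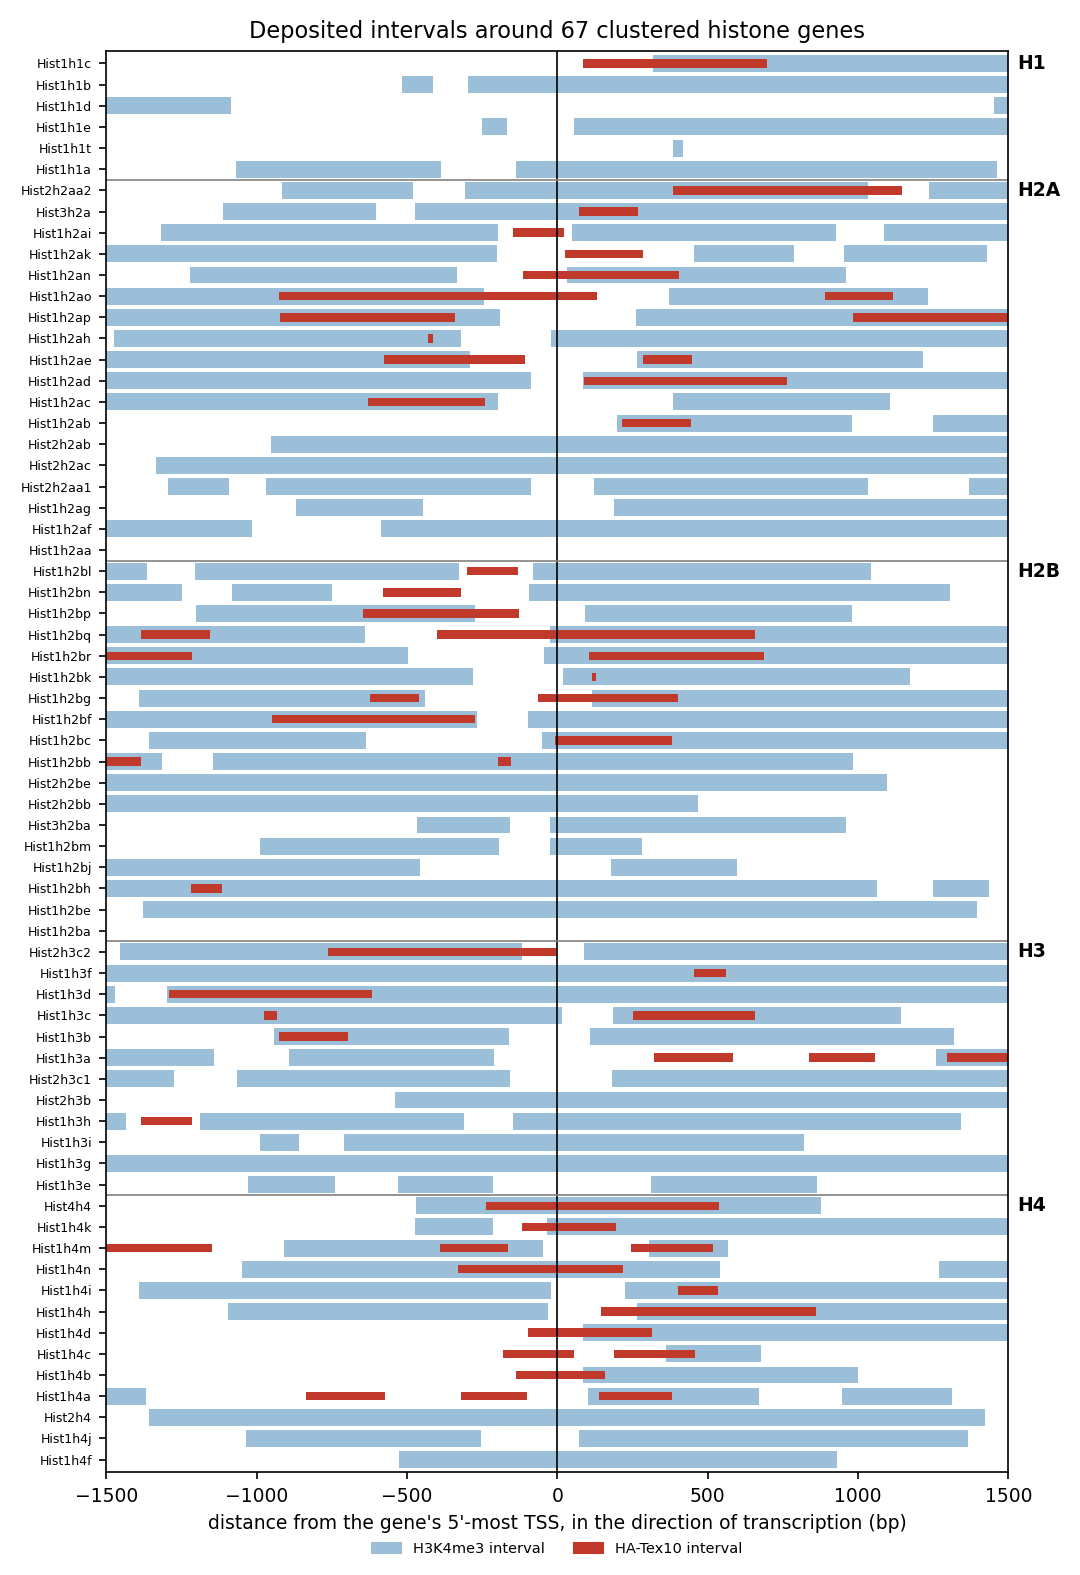
Deposited H3K4me3 intervals (blue) and HA-Tex10 intervals (red, thin) from 1500 bp upstream to 1500 bp downstream of the 5′-most TSS of each of the 67 histone genes, in the direction of transcription, grouped by class. Within a class, genes with HA-Tex10 within 1 kb come first. Many blue bars break at the TSS, and 12 red bars cross it.

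Most HA-Tex10 intervals at histone genes had their centre downstream of the nearest TSS, though many also reached outside the gene. This held for 24 of 31 (77.4%, 60.2 to 88.6%), against 772 of 1742 at other coding TSS (44.3%, 42.0 to 46.7%). In a divergent pair, an interval upstream of 1 gene can count as downstream of the other. Coding sequence of a histone gene was met by 27 of the 31, and 53.1% of their 11573 bases were coding. The same share at other coding TSS was not read. Histone genes are short (median 539 bp) with a start codon a median 33 bp from the TSS, so intervals near the TSS readily meet coding sequence. Counted by gene with its nearest interval, the centre was downstream at 21 of 39 genes (53.8%, 38.6 to 68.4%), against 41.7% of other genes. Its median was 37.5 bp downstream (95% interval -216.5 to 167 bp), a range that contains the -47 bp of other genes. This median depended on shared intervals, since for those within 1 kb of 1 gene alone it was 320.25 bp downstream. Among the 64 genes with H3K4me3, HA-Tex10 covered most from 150 to 350 bp downstream of the TSS, at 25% of genes at 4 of the 50 bp steps, while at other genes with H3K4me3 it covered most at the TSS itself, at 4.83%. The coding sequence is also the repeated part of these genes, and the part of the repeats in this position was not tested.

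In median width the intervals were close to others, but the upper quartile of HA-Tex10 width was higher at histone genes. The median was 272 bp for HA-Tex10 at histone genes (interquartile range 224 to 533.5 bp) and 233 bp at other coding TSS (156 to 330.75 bp). For H3K4me3 it was 1094.5 bp at histone genes and 1112 bp at other coding TSS. There were 2 or more HA-Tex10 intervals at 9 of the 39 histone genes, against 9.3% of all genes with any.

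Most of these intervals met H3K4me3. Of the 31 HA-Tex10 intervals, 26 overlapped H3K4me3 (83.9%, 67.4 to 92.9%), against 90.4% at other coding TSS, and 15 lay in it with all their bases (48.4%, 31.97 to 65.2%), against 71.9%. By bases, 73.8% lay in H3K4me3, against 83.5%. The 5 intervals that met none were the one shown for Hist1h2ai, the one shown for Hist1h4c, one at Hist1h2ak and Hist1h2bn, the 219 bp interval between Hist1h4a and Hist1h3a, and the 263 bp interval that lies mostly in Hist1h3a.

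The H3K4me3 intervals themselves often left the TSS uncovered, a pattern examined after the values were seen. The base of the 5′-most TSS was outside every H3K4me3 interval in 31 of the 64 histone genes with the mark (48.4%, 36.6 to 60.4%), against 23% of all such genes and 31.8% of those with a single exon and 1 TSS. At 100 bp downstream of the TSS it was 34.4% of histone genes, against 13.6% of all genes with H3K4me3 there and 22.5% of those with a single exon and 1 TSS. At 100 bp upstream it was 56.9%, against 34.7% and 40.9%. In 23 of 64 (35.9%, 25.3 to 48.2%) the TSS fell in a gap with H3K4me3 within 1 kb on both sides, against 4.5% of all such genes and 2.96% of those with a single exon and 1 TSS. Ribosomal protein genes had such a gap in 4 of 77 and DNA replication genes in 2 of 52. Many of the histone genes with a gap stand in the divergent pairs above, such as Hist1h2an with Hist1h2bp and Hist1h2ag with Hist1h2bj. In these pairs the H3K4me3 upstream of 1 gene lies at the other gene. The comparison genes were not matched for a TSS so close by, and the part of neighbouring genes in the gap was not tested.

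By class, the gap was found at 10 of 17 H2A, 4 of 17 H2B, 4 of 12 H3, 4 of 13 H4 and 1 of 5 H1 genes. It was 172 bp wide at Hist1h2ad and 655 bp at Hist1h2ak, with a median of 353 bp over the 23 genes, against 258.5 bp at other genes with a gap. The 23 genes shared 20 gaps. Of these gaps, 8 were met by an HA-Tex10 interval, at 10 of the 23 genes (43.5%, 25.6 to 63.2%), while at other genes with a gap 51 of 548 were (9.31%). The TSS was uncovered in 23 of 39 histone genes with HA-Tex10 (59.0%, 43.4 to 72.9%) and in 8 of 25 with H3K4me3 alone (32%, 17.2 to 51.6%). At other genes the figures ran the other way, with 14.4% of those with HA-Tex10 uncovered and 24.2% of those without. The Wilson intervals of the histone genes overlap. Neighbouring histone genes also shared HA-Tex10 intervals and gaps and were not independent, so this difference within them was not tested.

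Repeats were measured in the gaps too. Of the 20 gaps, 8 were mostly repeated, and 15 of 64 histone genes had their TSS in a gap that was not (23.4%, 14.7 to 35.1%), against 4.36% of all genes with H3K4me3. Among all 64 genes, H3K4me3 covered 42.2% at -150 bp, the lowest within 1 kb of the TSS, 51.6% at the TSS and 95.3% at 400 bp downstream. At other genes it rose from 16.5% at -1000 bp to 73.6% at the TSS and 85.2% at 250 bp downstream, with no dip. Upstream of histone genes this coverage includes H3K4me3 at neighbouring histone genes, and the other genes were not matched for such neighbours.

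**Figure D4:**
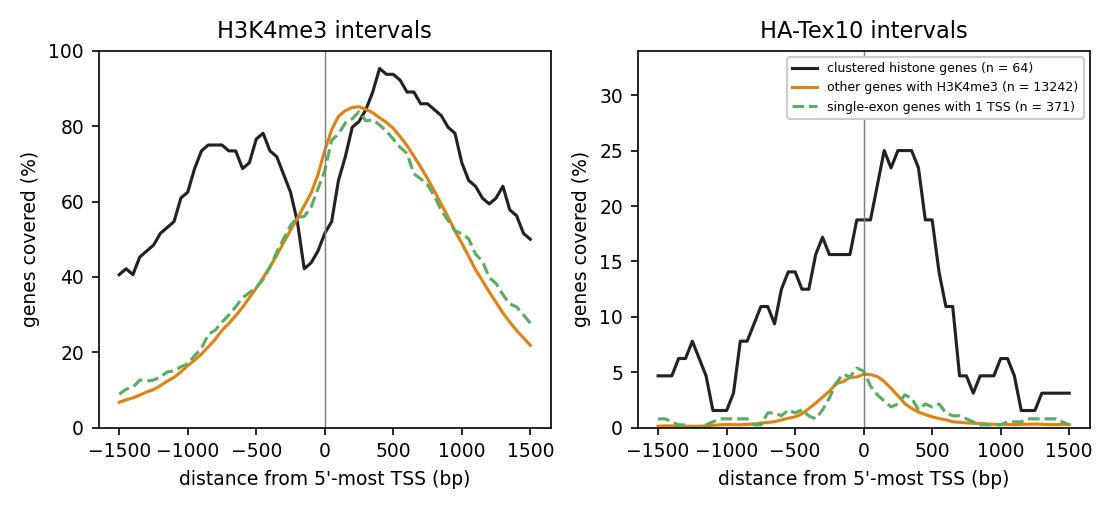
Share of genes (%) covered by H3K4me3 intervals (left) and HA-Tex10 intervals (right) at each 50 bp step from the 5′-most TSS, for clustered histone genes, other genes with H3K4me3, and single-exon genes with 1 TSS and H3K4me3. The vertical scales differ. The H3K4me3 line of histone genes dips to 42.2% at -150 bp where the other lines rise, and the HA-Tex10 line reaches 25%, against 4.83% in other genes and 5.39% in single-exon genes.

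On chromosome 13 the Hist1 genes form a pair of blocks. The first, chr13:21714763-22044676, spans 329.9 kb with a margin of 1 kb and holds 23 histone genes, 16 of them with HA-Tex10. The second, chr13:23530050-23935851, spans 405.8 kb and holds 31, of which 19 had HA-Tex10. Together the histone genes accounted for 28 of the 197 HA-Tex10 intervals of the chromosome (14.2%). In the first block 11 of 16 HA-Tex10 intervals lay at histone TSS, and in the second 17 of 20. The Hist1h2aa and Hist1h2ba pair stands alone at the far end of the second block.

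**Figure D5:**
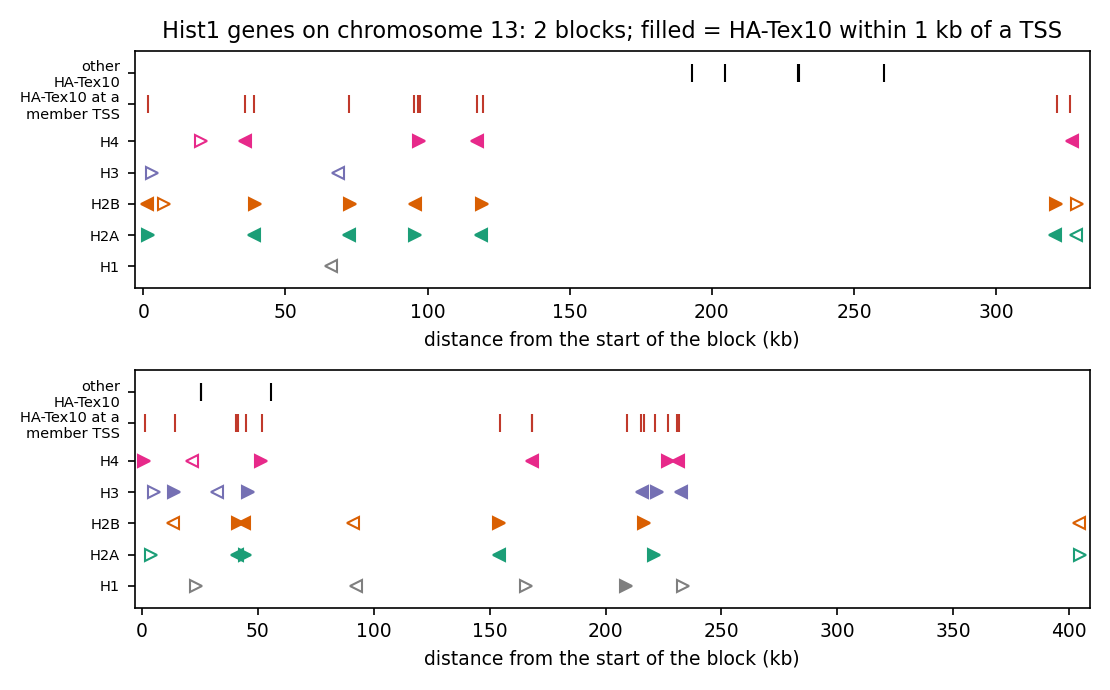
Histone genes of the Hist1 cluster along its first block (top) and second block (bottom), by class, against distance from the start of the block in kb. Triangles point in the direction of transcription and are filled where HA-Tex10 lies within 1 kb of a TSS, and ticks above mark HA-Tex10 intervals. HA-Tex10 ticks follow the genes, 11 of 16 in the first block and 17 of 20 in the second.

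Promoter sequence was read from 250 bases before to 50 after the RefSeq TSS, on both strands, in the 62 histone genes with an entry and in all 16714 genes of the table that matched. The CCAAT box, bound by the factor NF-Y, was in 53 of 62 (85.5%), against 38.6% of all promoters. It was in all 6 H1, 18 H2A, 16 H2B and 10 H3 promoters and in 3 of 12 H4 promoters. The TATA box TATAAA was in 35 of 62 (56.5%), against 13.2%. The octamer ATTTGCAT, bound by Pou2f1, was in 14 of 62 (22.6%), against 1.65%, and these were 7 H2A and 7 H2B promoters. These counts describe letters in a window and not binding.

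The elements named for a class were found mainly in it. The H1 box AAACACA was in 5 of 6 H1 promoters and in 9 of 62 in all (14.5%), against 6.11% of all promoters. The H4 site II core GGTCCG was in 11 of 12 H4 promoters and in 13 of 62 in all (20.97%), against 10.9%. TGACGT was in 17 of 62 (27.4%), against 8.91%, all of them H2A, H2B or H4. The SP GC box was in 24 of 62 (38.7%), against 47.8%. The NRF1 consensus was in 0 of 62 against 1.36%, the E-box CACGTG in 0 against 8.08%, and the ETS motif CCGGAAG in 1 against 12.3%.

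Promoters of genes with and without HA-Tex10 were set side by side, again with paired genes counted separately though they can share a site. The octamer was in 8 of 36 promoters of genes with HA-Tex10 and in 6 of 26 without, the TATA box in 21 of 36 and 14 of 26, and CCAAT in 29 of 36 and 24 of 26. TGACGT was in 12 of 36 and 5 of 26, GGTCCG in 9 of 36 and 4 of 26, and the H1 box in 2 of 36 and 7 of 26. Classes were not separated in these counts. The H1 box was in 5 of 6 H1 promoters, and 1 of 6 H1 genes had HA-Tex10. GGTCCG was in 11 of 12 H4 promoters, and 10 of 13 H4 genes had HA-Tex10. The part of class in these counts was not tested.

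Genes that act on these histones and their mRNAs were also read. Of 14 unclustered histone genes, 11 had H3K4me3 and 2 had HA-Tex10 (14.3%, 4.01 to 39.9%, against 8.66% of all genes). They were H2afx (152 bp), the variant phosphorylated at DNA breaks, and H3f3b (779 bp), which encodes the replacement histone H3.3. Both had H3K4me3, and among the 11 genes with it the share was 18.2% (5.14 to 47.7%). Of 26 factors of histone gene expression, 26 had H3K4me3 and 7 had HA-Tex10 (26.9%, 13.7 to 46.1%). They were Npat (257 bp), the octamer factor Pou2f1 (248 bp), Slbp (103 bp), the cleavage factor Cstf3 (115 bp), the RNA decay helicase Upf1 (229 bp), the decapping enzyme Dxo (189 bp) and the NF-Y subunit Nfyc (75 bp). Of 19 histone chaperones, 19 had H3K4me3 and 4 had HA-Tex10 (21.1%, 8.51 to 43.3%), namely Asf1b, Rbbp4, Nasp and Npm1. The Wilson intervals of all 3 lists among genes with H3K4me3 contain the 13.9% of all such genes.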

How the data were processed

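ChIP-seq intervals of day 2 PGCLCs were analysed (6 samples in 3 groups of 2). Per the submitters' processing notes the tools were Bowtie2 2.3.4.3, SAMtools 1.9, MACS2 2.1.2 and HOMER, and the build was mm10. Thresholds, the use of the input and the treatment of replicates are not given in the sources used here. The lists deposited by the authors give interval bounds in bp and no score. There were 4331 HA-Tex10 and 29072 H3K4me3 intervals, and a further deposited list holds 2990 of the HA-Tex10 intervals. There were 0 unused columns of per-sample values.

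A gene was called where an interval came within 1 kb of a TSS of its protein-coding transcripts (GENCODE M21). Python 3.11.15 with NumPy 2.4.6, SciPy 1.17.1 and pandas 2.3.3 was used, with figures from matplotlib 3.10.9, and the functions were tested on simulated data. Regions under 100 bp were widened to 100 bp for word counts, and wider H3K4me3 intervals were read over their central 300 bp. Promoters came from the RefSeq table, which gave 62 of 67 genes (not Hist2h2be, Hist2h4, Hist1h3f, Hist1h2bc and Hist1h3a). Coding identity was used in place of protein identity.

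The members and lists were chosen with earlier results of these data known. Named genes were all members with HA-Tex10, those without H3K4me3, the testis members Hist1h1t, Hist1h2aa and Hist1h2ba, and pathway genes with HA-Tex10. Printed promoters were those at the widest HA-Tex10 interval of each class and the nearest H2A gene without; that of Hist1h2bq, which overlaps that of Hist1h2ao, was left out. Alternatives were other windows, all transcripts, wide intervals, intervals without repeats, the further list, 1 gene per interval, 50-base words and a longer promoter window.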

Additional observations from a re-analysis of the deposited data

How the results depend on the processing

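Of 158 alternative values, 117 stayed within the Wilson interval or range of the value reported and 41 moved outside it, and 22 and 2 of these came from alternatives chosen after seeing the data. No paired analysis was possible because the lists hold no replicate values. With a 2.5 kb window HA-Tex10 was at 70.1% of histone genes (9.51% of all genes). It was then at 72.3% of histone genes with H3K4me3, 66.7% of H1 and 79.6% of Hist1 genes. H3K4me3 was at 100% of H1 genes (62.2% of all genes). With an interval over the TSS itself HA-Tex10 was at 17.9% of histone genes (3.85% of all genes), 15.2% of those with H3K4me3 there, 0% of H1, 16.7% of H2A, 16.7% of H2B, 0% of H3, 46.2% of H4, 20.4% of Hist1, 0% of Hist2 and 0% of Hist3 genes. H3K4me3 was then at 49.3% of histone genes (52.3% of all genes), 33.3% of H1, 33.3% of H2A, 72.2% of H2B, 58.3% of H3 and 38.5% of H4 genes. With HA-Tex10 intervals over the median width the share was 43.3% of histone genes (4.61% of all genes). It was 48.1% of Hist1 and 0% of Hist3 genes. Of the 59 histone genes with an H3K4me3 interval over the median H3K4me3 width, 26 had such an HA-Tex10 interval (44.1%). Without mostly repeated intervals HA-Tex10 was at 20.9% of histone genes (8.19% of all genes). It was at 14 of the 54 histone genes that kept an H3K4me3 interval under the same rule (25.9%). It was at 11.1% of H2A, 11.1% of H2B, 16.7% of H3, 22.2% of Hist1 and 0% of Hist2 genes. H3K4me3 was then at 80.6% of histone genes (59.6% of all genes), 72.2% of H2A and 76.9% of H4 genes. With each interval given to its closest gene HA-Tex10 was at 41.8% of histone genes (7.4% of all genes) and 27.8% of H2B genes. From the start codon H3K4me3 was at 100% of H1 genes. The median centre of HA-Tex10 was 320.25 bp for intervals at 1 gene, the SP GC box was in 54.8% of promoters with 500 bases upstream, and the position 100 bp downstream of the TSS was outside H3K4me3 in 34.4% of genes. The window, width and single-gene rules change by construction which intervals count, and the cause of other shifts was not tested. The lists carry no depth or score, so an absent interval may be a weak one.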

Other observations

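Between the histone genes, the first Hist1 block also holds 31 tRNA genes, which RNA polymerase III transcribes. Of these, 3 had an HA-Tex10 interval within 200 bp, a count given without the share over all tRNA genes, which was not read. Those 3 intervals were 106, 337 and 163 bp wide with 0%, 17.97% and 0% of their words repeated, and H3K4me3 met the first 2. The other 2 HA-Tex10 intervals of the block away from histone TSS, of 40 and 95 bp, lay within 1 kb of Zfp184, a zinc finger gene. In the second block the 3 intervals away from histone TSS were 2 at the coding sequence of Hist1h1d, of 112 and 33 bp, and a 352 bp interval at that of Hist1h2be, 86.6% repeated. The interval of Hist3h2a also lay within 1 kb of a TSS of its neighbour Trim17.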
